A study of Mus musculus with 24 samples.

Results

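The 3′UTR intervals of mouse chromosome 3 were examined in preleukemic cells that lack the terminal uridylyltransferases TUT4 and TUT7 and in control cells. Intervals were taken by chromosome and selected on measured values: the longest of overlapping intervals was kept for each gene, and a mean of at least 20 reads over the 24 libraries was required. This left 462 intervals of 441 genes out of 1455 kept on the chromosome, beside 9945 intervals that passed the same minimum in the whole genome. Of the 1455 intervals, 655 had no read in any library. The members lay between positions 5560188 and 159935175 of chromosome 3 (build mm10), 235 on the plus and 227 on the minus strand. Just inside the minimum were H2ac19 (mean of 20.1 reads), Gucy1a1 (20.2) and Adamtsl4 (20.8), and just outside it were Tnik (19.8), Pld1 (19.8) and Slc22a15 (19.5). In 9 members the control mean, and in 17 members the cDKO mean, was under 20 reads, so that these passed through 1 genotype. In both genotypes the mean reached 20 reads for 436 members.

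RNA was measured by SLAM-seq, in which the nucleoside analogue 4SU is built into new RNA, alkylated and read as T-to-C conversions in 3′-end libraries. Fetal liver progenitors expressing c-Kit, from mid-gestation embryos of C57BL/6 mice with floxed Tut4 and Tut7 alleles, had been transduced with Meis1 and Hoxa9 retroviruses. Cells labelled control lacked the Vav-iCre transgene, and cells labelled cDKO (Tut4/7 Vav-iCre cDKO) carried it, so that both genes were deleted in hematopoietic cells. Cells of both genotypes were labelled with 2.9 µM 4SU for 12 h and collected 0, 60, 180 and 540 min after its removal, in 3 replicates each, which gave 8 groups. Both genotypes carry the floxed alleles and both retroviruses, so that the comparison is of Vav-iCre with its absence in cells expressing both oncogenes. The study states that its replicates came from separate animals or embryos, and the labels do not name the animal or embryo of each library.

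TUT4 and TUT7 add uridines to RNA 3′ ends, which marks many mRNAs with short poly(A) tails and some microRNA precursors for decay. Mouse chromosome 3 carries genes of very different roles, among them the S100 family of calcium-binding proteins, the neighbouring genes of the cornified envelope of skin, the glutathione S-transferases of the mu class and the mevalonate pathway enzyme Fdps. Genes that are neighbours on a chromosome need not be regulated together, while their RNA output shares the DNA template of that chromosome.

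The libraries held 4371329 to 7019203 reads in kept 3′UTR intervals. Levels are given as CPM, an interval's reads scaled by this total, and the share of covered T positions read as C is called the conversion rate. Over the 3′UTR intervals of each gene, which need not lie in the deleted part, Tut4 lay at 68.3 to 105 CPM in control and 17.8 to 40.0 CPM in cDKO libraries, and Tut7 at 34.7 to 66.3 and 16.7 to 33.4 CPM. Of 8 progenitor markers, 7 had reads in control and 8 in cDKO libraries, with Hoxa9 the highest. In its 3′UTR intervals Meis1 had no read in control libraries and 107 in cDKO libraries. Whether RNA of the Meis1 retrovirus would be counted there was not examined. Elane and Mpo, granule proteins of neutrophil precursors, lay at 1216 to 1575 and 474 to 766 CPM in control and at 13.9 to 169 and 0.714 to 220 CPM in cDKO libraries. The sum of 9 mast cell and basophil markers was 16.7 to 35.3 CPM in control and 147 to 323 CPM in cDKO libraries. The difference was mainly in Cpa3, Gata2 and Hdc, while Mcpt8 had medians of 14.6 and 9.91 CPM and Ms4a2 of 6.19 and 5.99 CPM. Of the others, Prss34 had no read in control and 56 in cDKO libraries, and Fcer1a, Cma1 and Tpsb2 were at 0 in both. The sum of 8 erythroid markers was 0.373 to 3.08 and 1304 to 2087 CPM, nearly all of it Hbb-bt, with Car1, Epor and Alas2 at 0 in both. T cell markers had no read, and the B cell marker Cd79a was at 0 in both genotypes. The sum of 4 endothelial and stromal markers was 55.6 to 122 and 262 to 498 CPM, nearly all Pecam1, with Cdh5 at 0. The part of these differences in the results below was not tested. In bulk libraries, fewer cells with an RNA and less of it per cell cannot be told apart, and DNA was not measured here.

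A pair of member sets is described throughout, both set by their abundance. The first holds the 32 members (29 genes) whose fitted log2 change lay above 0 at all 4 chase times, and the second the 137 members called lower in cDKO at all 4 times. Before their values, the promoters of the genes at both extremes are shown, because the share with a TATA box differed most between the sets among the motifs counted, a choice made after the values were seen. Promoter letters (RefSeq, build GRCm38.p6, 250 bases before to 50 after the start) were matched by symbol for 361 of 441 member genes. TATAAA on the gene's own strand, lying wholly between 50 and 6 bases before the start, was found in 4 of 24 matched genes of the first set (16.7%), 3 of 107 of the second (2.80%) and 4 of 230 other members (1.74%). Of all 27025 genes with a promoter entry 2.98% held it, and of genes with an interval tested 1.43%. On other autosomes it was in 1.99% of genes above 0 at all 4 times and 2.52% of those called higher at all 4 times. The stretches with the motif in capitals, 5′ to 3′ on the gene's strand, were the following. Ecm1 was outside the rule for named genes and is shown as the fourth of the first set.
Cpa3, chr3:20242195-20242224, minus strand: taaaagctgaggTATAAAacccgtataggg
Ecm1, chr3:95739579-95739608, minus strand: cgggagatagcaTATAAAgagagacagaca
Ivl, chr3:92573747-92573776, minus strand: aggctagaacaaTATAAAgggccctagttg
Rpl22l1, chr3:28805468-28805497, plus strand: agcacgtttttaTATAAAagcgtgcgtgcg
S100a8, chr3:90669029-90669058, plus strand: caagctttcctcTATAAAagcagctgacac
Mgst2, chr3:51661135-51661164, plus strand: ctctgttgccttTATAAAggagaagaccag
Gstm1, chr3:108017831-108017860, minus strand: tctagtagtctgTATAAAgtcacaactcca

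The first 4 belong to genes above 0 at all 4 times and the last 3 to genes called lower at all 4 times, and the capitals begin 27 to 32 bases before the start in all of them. Of the first 4, Cpa3 had no control read and Ivl lay under the read minimum in each control library of 0 min. Both met that minimum in cDKO, where they are high, while S100a8 met it through control alone. The shares with the motif thus rest partly on genes that entered by their level in the higher genotype, and they were not tested. Anywhere in the 300 bases and on either strand, TATAAA was found in 29.2% of the first set, 15.0% of the second, 8.70% of the other members and 15.7% of all genes. The Sp1-type motif GGGCGG was in 62.5%, 69.2% and 64.3% of the 3 member sets and in 38.2% of all genes. CCAAT was in 41.7%, 41.1% and 46.5% and in 41.1% of all genes. The median number of CG pairs in the 300 bases was 15.3 in the first set, 20.0 in the second and 21.0 in the other members, and 7.00 over all genes. Most entries in the whole table are of genes that had no interval above the minimum here: over the genes that did, the median was 21.5 and TATAAA was in 8.06%. These are counts of letters and not of bound factors.

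Chromosome 3 was examined because its 3′UTRs were lower in these cDKO libraries, and the shared decrease is therefore a description without a test. Reads in the 462 members made up 5.81% to 5.88% of all 3′UTR reads in the 3 control libraries of 0 min and 3.92% to 4.38% in the 3 cDKO libraries. At 540 min the shares were 5.87% to 6.11% and 4.13% to 4.38%. The shares of the genotypes did not overlap at any time, and the cDKO mean was 0.711, 0.717, 0.706 and 0.705 of the control mean in order of chase time. The ratio thus stayed between 0.705 and 0.717 from 0 to 540 min.

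The same was seen when each interval counted once. The median log2 change of the members, cDKO over control, was -0.51 at 0 min (quartiles -0.71 and -0.27), -0.48 at 60 min, -0.54 at 180 min and -0.51 at 540 min, so that the median member lay at 0.704, 0.716, 0.690 and 0.701 of its control level. The 9171 intervals of other autosomes had medians of 0.02, 0.01, 0.02 and 0.02. The change was below 0 in 402, 402, 407 and 411 of the 462 members, against 47.3%, 48.3%, 47.2% and 47.0% of intervals on other autosomes. Set against the control mean of its own time, each of the 12 cDKO libraries had a median member change between -0.59 and -0.46, while the 12 control libraries lay between -0.01 and 0.02. In the same cDKO libraries the other autosomes lay between 0.00 and 0.04.

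**Figure D1:**
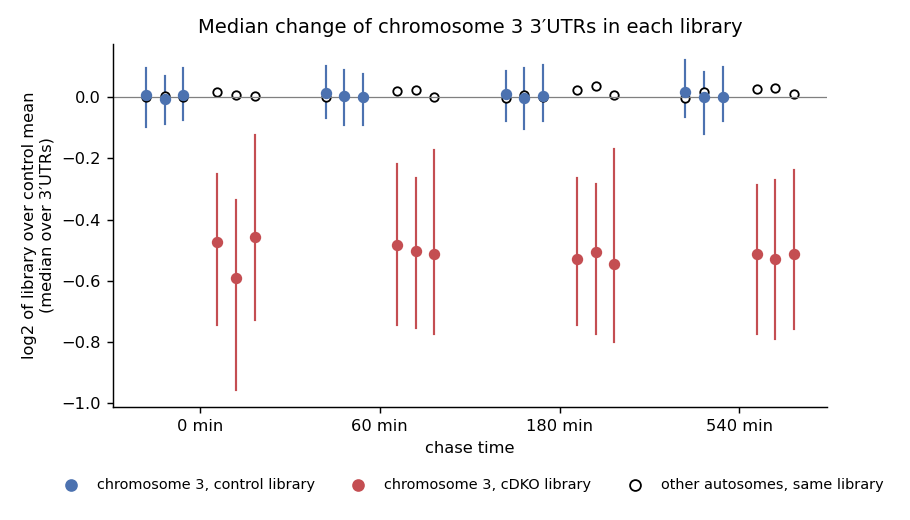
Each filled point is the median over the 462 chromosome 3 3′UTRs of the log2 ratio of 1 library to the mean of the 3 control libraries of its chase time, with a line from the lower to the upper quartile; open points are the median over 9171 3′UTRs of the other autosomes in the same library. The cDKO libraries (red) lie between -0.59 and -0.46 at every time, and the control libraries (blue) and the other autosomes lie near 0.

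Most members moved by a similar, modest amount. At 0 min 307 of 462 members (66.5%) had a log2 change between -1 and -0.25, against 17.7% of the other autosomes, and 71 (15.4%) lay between -0.25 and 0.25, against 54.6%. A fall beyond 1 was seen in 44 members (9.52%) and a change above 1 in 18 (3.90%), against 3.07% and 4.79%. Among the 144 members with at least 500 reads on average, where counting error is least, 135 were below 0 and the quartiles were -0.65 and -0.33. The same quartiles for 2240 such intervals of other autosomes were -0.12 and 0.20. The upper quartile of the members was thus below the lower quartile of the other autosomes.

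**Figure D2:**
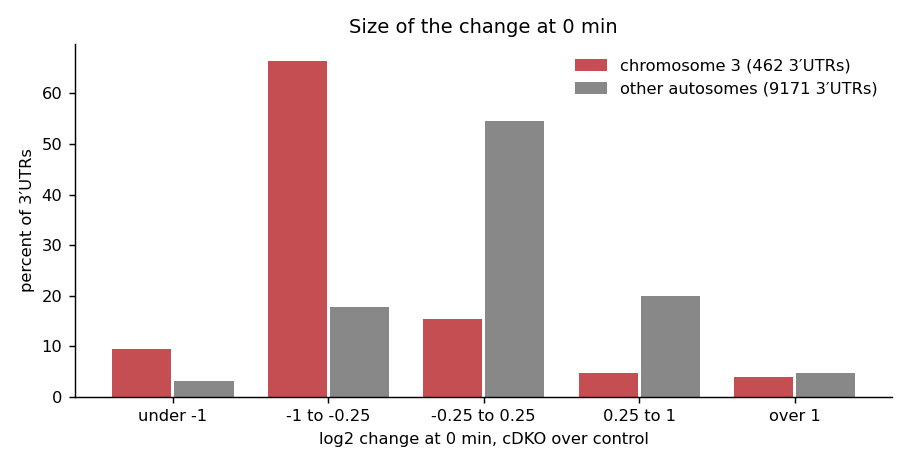
Bars give the percent of 3′UTRs in each range of log2 change, cDKO over control, at 0 min, for the 462 chromosome 3 members (red) and 9171 3′UTRs of the other autosomes (grey). The members peak at -1 to -0.25 with 66.5%, and the other autosomes peak at -0.25 to 0.25 with 54.6%.

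In the fit over all intervals (edgeR quasi-likelihood test, adjusted p under 0.05), 178, 241, 244 and 257 members were called lower at 0, 60, 180 and 540 min. Over all intervals tested 6.39%, 10.2%, 10.1% and 9.98% were called lower. Called higher were 15, 20, 19 and 15 members, against 6.58%, 9.74%, 9.26% and 9.02% of all intervals. At 0 min all 3 cDKO libraries lay below all 3 control libraries in CPM for 304 members (65.8%), against 17.9% of all intervals. Called lower at all 4 times were 137 members (29.7%), against 4.22% of all intervals and 2.99% on other autosomes. Higher at all 4 times were 14 members of 12 genes (3.03%), against 4.02% and 3.97%, and above 0 at all 4 times, called or not, were 32 (6.93%), against 28.8% and 29.7%. Since abundance led to the choice of this chromosome, nothing more is read from these counts. The calls at 0 min varied with the libraries used: the members called lower were 94, 84 and 88 without control replicate 1, 2 or 3, and 124, 221 and 191 without cDKO replicate 1, 2 or 3. Counts of each replicate summed over the chase times gave 335 members lower and 20 higher, against 16.4% and 15.3% of all intervals.

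To find members that departed from the shared change, the median change of the members was taken into the cDKO offset of chromosome 3 intervals. On this measure 26, 45, 50 and 31 of the 462 members lay above the shared change at 0, 60, 180 and 540 min and 19, 53, 41 and 36 below it (edgeR, adjusted p under 0.05 over all intervals). In the abundance fit without this offset, 6.68%, 9.90%, 9.45% and 9.22% of intervals on other autosomes were called higher at these times. Called lower there were 4.86%, 8.19%, 7.98% and 7.74%. At all 4 times 18 members (3.90%) lay above it and 14 (3.03%) below it. On the other autosomes, where the reference is no change, the shares were 3.82% and 2.81%.

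The decrease ran along the whole chromosome. In 10 Mb windows the median change at 0 min was below 0 in all 16 windows with at least 5 members, from -0.70 at 60 to 70 Mb (22 members) to -0.05 at 20 to 30 Mb (8 members). In 10 of the 16 windows the median was below -0.4 at all 4 times. Among 233 windows of the other autosomes no median was below -0.4 at all 4 times, and the lowest at 0, 60, 180 and 540 min were -0.30, -0.42, -0.68 and -0.46, of which the third was below the lowest chromosome 3 window of its time (-0.66). The windows nearest to 0 were 0 to 10 Mb (-0.10 at 0 min and -0.66 at 180 min, 7 members) and 20 to 30 Mb (-0.05 and -0.20). Both hold few members, and in the second 2 of the 8, Cpa3 and Rpl22l1, were above 0 at all times. In 13 windows all 12 cDKO libraries had a window median below 0, and their highest value lay between -0.51 at 30 to 40 Mb and -0.06 at 140 to 150 Mb. In the other 3 windows, 0 to 10, 20 to 30 and 40 to 50 Mb, 11, 10 and 11 of the 12 were below 0. Split by order into 3 parts of 154 members, the part nearest the centromere had a median of -0.50 at 0 min, the middle part -0.52 and the part nearest the far end -0.50.

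**Figure D3:**
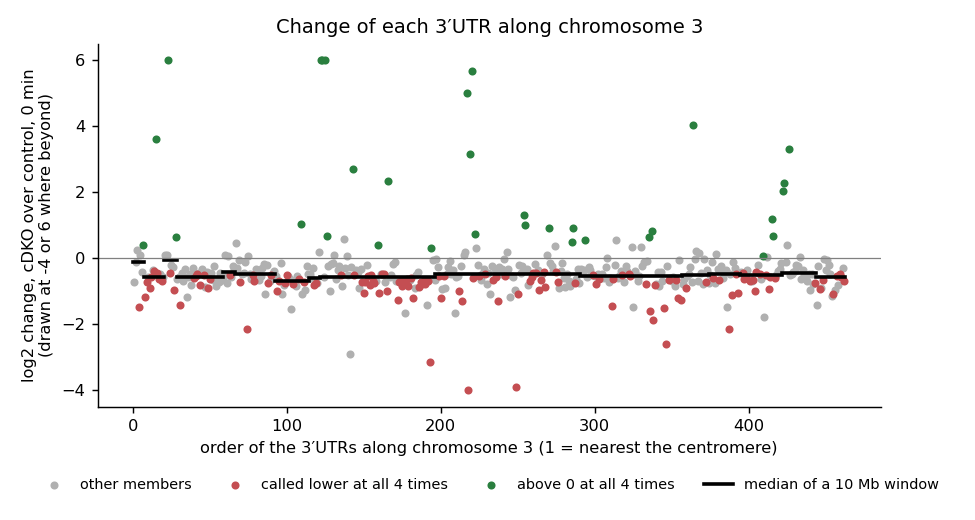
Each point is 1 of 462 3′UTRs in its order along chromosome 3, with its log2 change, cDKO over control, at 0 min on the y axis (drawn at -4 or 6 where beyond). Black bars are medians of 10 Mb windows with at least 5 members and lie between -0.70 and -0.05, and the 32 members above 0 at all 4 times (green) are scattered along the chromosome among those called lower at all 4 times (red).

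Members of every read depth and length were lower. In 4 equal classes of mean reads, set over all intervals tested, the members' median change at 0 min was -0.49, -0.56, -0.49 and -0.50 from the fewest to the most reads, and that of the other autosomes 0.01, 0.00, 0.02 and 0.04. In 4 classes of interval length it was -0.50, -0.49, -0.53 and -0.49 from the shortest to the longest. In 4 classes of control half-life, for the members that had one, it was -0.50, -0.49, -0.48 and -0.56 from the shortest to the longest. These are descriptions over intervals, which are not replicates.

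By function, 6 of the 8 gene lists had a median change below 0 at 0 min. Their counts stand beside the 38.5%, 52.2%, 52.8% and 55.6% of all members called lower at 0, 60, 180 and 540 min, and no list was tested against the other members. Chromosome 3 was chosen for its lower abundance. Here and below, the abundance p-value of a member near the shared change restates that decrease and is no further support. Of 14 members in the metabolism list 10, 13, 13 and 14 were called lower at 0, 60, 180 and 540 min and none higher, with a median of -0.63 at 0 min. Atp5pb, a subunit of ATP synthase, was at 577, 611 and 612 CPM in control and 412, 384 and 475 CPM in cDKO at 0 min. All 3 cDKO libraries lay below the control libraries, and the log2 change was -0.49 ± 0.09 (SE; adjusted p = 0.01, edgeR), close to the median of all members (-0.51). Ndufb5 and Ndufc1, subunits of respiratory complex I, changed by -0.54 and -0.71, and Gclm, a subunit of glutamate-cysteine ligase, by -0.60. Fdps, which makes farnesyl diphosphate in the mevalonate pathway, was at 90.7, 92.2 and 80.6 CPM in control and 42.1, 39.9 and 25.9 CPM in cDKO at 0 min. The groups did not overlap, and Fdps fell by 1.27 ± 0.19 on the log2 scale (adjusted p = 0.00297), by 1.31, 0.86 and 0.99 at the later times. Its distance from the shared change was past the threshold at 0 min (adjusted p = 0.031, edgeR).

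Of 16 members in the list of RNA processing and RNA ends 11, 12, 15 and 11 were called lower and none higher, with a median of -0.53 at 0 min. Mbnl1, a splicing regulator, was at 1170, 1266 and 1209 CPM in control and 606, 613 and 579 CPM in cDKO at 0 min. It fell by 1.01 ± 0.08 (adjusted p = 0.000153), with no overlap of the groups. Rbm8a, a core of the exon junction complex, changed by -0.43, the spliceosome subunit Sf3b4 by -0.42, and Gar1, of the box H/ACA particle, by -0.31 without passing the test at 0 min. Tent5c, a poly(A) polymerase of the same chromosome, had fewer than 20 reads on average and was not a member.

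Of 13 members in the ribosome and translation list 6, 9, 10 and 8 were called lower and 1 higher. Rpl34, a protein of the large ribosomal subunit and the member with the most reads (mean 8591), was at 1835, 1745 and 1866 CPM in control and 1220, 1506 and 1262 CPM in cDKO at 0 min and fell by 0.44 ± 0.11 (adjusted p = 0.0269). Its call was lost without any 1 control replicate or cDKO replicate 1 (adjusted p of 0.0887 to 0.118) and with the replicate block (0.0535). Rps3a1 and Mrps21 fell by 0.50 and 0.46, but 99.6% and 99.7% of their reads mapped to several places, so that their values may hold reads of near-identical copies. The exception was Rpl22l1, a paralogue of Rpl22 in the large subunit, at 222, 201 and 201 CPM in control and 316, 283 and 379 CPM in cDKO. It rose by 0.66 ± 0.12 at 0 min (adjusted p = 0.00726; 0.0514 without control replicate 2), by 0.51, 0.54 and 0.27 later, and 35.3% of its reads mapped to several places.

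Of 11 cell cycle members 4, 5, 5 and 4 were called lower and none higher, with a median of -0.41 at 0 min. The condensin subunit Smc4 fell by 0.72 and cyclin A2 (Ccna2) by 0.44, while Cks1b changed by -0.41 without passing the test at 0 min. The histone variant gene H2az1 was at 738, 685 and 748 CPM in control and 665, 898 and 664 CPM in cDKO at 0 min. Its groups overlapped, its change was 0.05, -0.07, 0.05 and 0.04 in order of time, and 70.7% of its reads mapped to several places. Psrc1, a spindle protein, stood apart at the other end, with 80.0, 74.6 and 71.3 CPM in control and 10.5, 9.01 and 17.8 CPM in cDKO at 0 min. It fell by 2.59 ± 0.23 (adjusted p = 0.000233), and by 1.17 at 540 min, where control was at 27.5 to 36.3 CPM.

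Of 17 members among leukemia and signalling regulators 4, 8, 7 and 8 were called lower and none higher, and the median was -0.48 at 0 min. The GTPase gene Nras changed by -0.53 at 0 min (adjusted p = 0.061) and fell by 0.38, 0.45 and 0.64 at the later times. Mcl1, which restrains apoptosis, changed by -0.24, -0.37, -0.33 and -0.44, past the test at 60 and 540 min. Fubp1 changed by -0.22, -0.30, -0.19 and -0.18, past the test at 60 min. All 3 members of the proteasome list were called lower at 60 and 180 min, and Psmb4 and Psmd4 at all 4 times, with changes of -0.47 and -0.66 at 0 min. Psma5 changed by -0.70 at 0 min without passing the test (adjusted p = 0.1).

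The S100 list and the immune and surface list had median changes above 0 at 0 min, which was not tested against the other members. Of 7 S100 members 3 were called lower and 1 higher at each time, and the median change was 0.10 at 0 min and -0.13 at 540 min. S100a6 was at 8.15, 12.8 and 12.3 CPM in control and 347, 193 and 536 CPM in cDKO at 0 min, and at 10.4, 13.5 and 9.97 and 326, 232 and 608 CPM at 540 min. It rose by 5.01 ± 0.38 on the log2 scale at 0 min (adjusted p = 0.000135) and by 4.96, 4.98 and 5.10 later. Its neighbour in the order of members, S100a8, a subunit of calprotectin in neutrophils, went the other way. Over the 3 libraries of 0 min S100a8 had 391 reads in control and 2 in cDKO, which is 167-fold lower (95% exact interval 46.0 to 1387, counting error only). It passed the minimum through control alone, so that no p-value is given.

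S100a11 fell by 0.61 ± 0.11 at 0 min, close to the shared change, from 1552, 1501 and 1442 CPM to 1092, 809 and 1024 CPM, and S100a1 fell by 1.29 ± 0.16, from 341, 279 and 270 to 138, 92.6 and 131 CPM. S100a10, the partner of annexin A2, was at 71.0, 75.4 and 56.6 CPM in control and at 91.0, 35.3 and 209 CPM in cDKO. Its cDKO libraries lay on both sides of the control libraries, and its change of 0.72 ± 0.49 did not pass the test (adjusted p = 0.399). Without cDKO replicate 3 the change was -0.10.

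Of 12 members in the immune and surface list 2, 3, 3 and 4 were called lower and 4, 4, 4 and 3 higher, with a median of 0.37 at 0 min. Vcam1, an adhesion molecule that binds integrins, was at 18.1, 29.0 and 39.4 CPM in control and 474, 209 and 748 CPM in cDKO at 0 min and rose by 4.04 ± 0.46 (adjusted p = 0.000711). Car2, a cytosolic carbonic anhydrase, was at 10.9, 4.33 and 10.6 CPM and 84.2, 33.6 and 203 CPM and rose by 3.62 ± 0.63 (adjusted p = 0.00648). In both genes every cDKO library was above every control library. Cpa3, a carboxypeptidase of mast cells, had no read in any control library and 57.0, 57.8 and 72.3 CPM in cDKO at 0 min. Against a floor of 3 reads over the 3 control libraries it was at least 352-fold higher at 0 min, and at least 328-fold higher at each time. With no control read it passed the minimum through cDKO alone, so that no p-value is given. Cpa3 is also in the mast cell and basophil list, in which Gata2 and Hdc were also higher in cDKO while Mcpt8 and Ms4a2 were not. Prss34, of the same list, had 56 reads in cDKO libraries and no read in control.

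Ctss, a lysosomal cysteine protease, was at 17.5, 44.5 and 26.0 CPM in control and 2.29, 1.94 and 1.54 CPM in cDKO at 0 min with a fitted difference of -3.90 ± 0.41, and it passed the minimum through control alone. Il6ra, the receptor of the IL-6 present in the culture medium, was at 53.6, 69.5 and 64.5 CPM and 14.2, 5.48 and 1.76 CPM and fell by 3.14 ± 0.48 (adjusted p = 0.0039). Both were lower in each cDKO library than in any control library. Of the progenitor markers, whose part in this was not tested, Elane, Mpo and Ptprc were lower in every cDKO library. Ptprc was at 215 to 292 CPM in control and 109 to 201 CPM in cDKO. Kit overlapped, with a lower cDKO median (76.3 and 50.9 CPM). Itgam overlapped (71.4 to 116 CPM in control and 58.6 to 108 CPM in cDKO), Cd34 had a higher cDKO median (20.2 and 27.7 CPM) and Hoxa9 was higher in every cDKO library. Cd53, a leukocyte tetraspanin, changed by 0.34, 0.32, 0.44 and -0.01, and the interferon-inducible GTPase gene Gbp7 by -0.12, 0.01, -0.16 and -0.38, of which the last passed the test. Gbp2 and Gbp3, also in this list but outside the rule for named genes, had few reads (means of 54.2 and 30.5). Gbp2 changed by 3.30, 2.37, 2.55 and 1.35, and Gbp3 by 0.40, 0.46, -0.71 and 0.01.

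**Figure D4:**
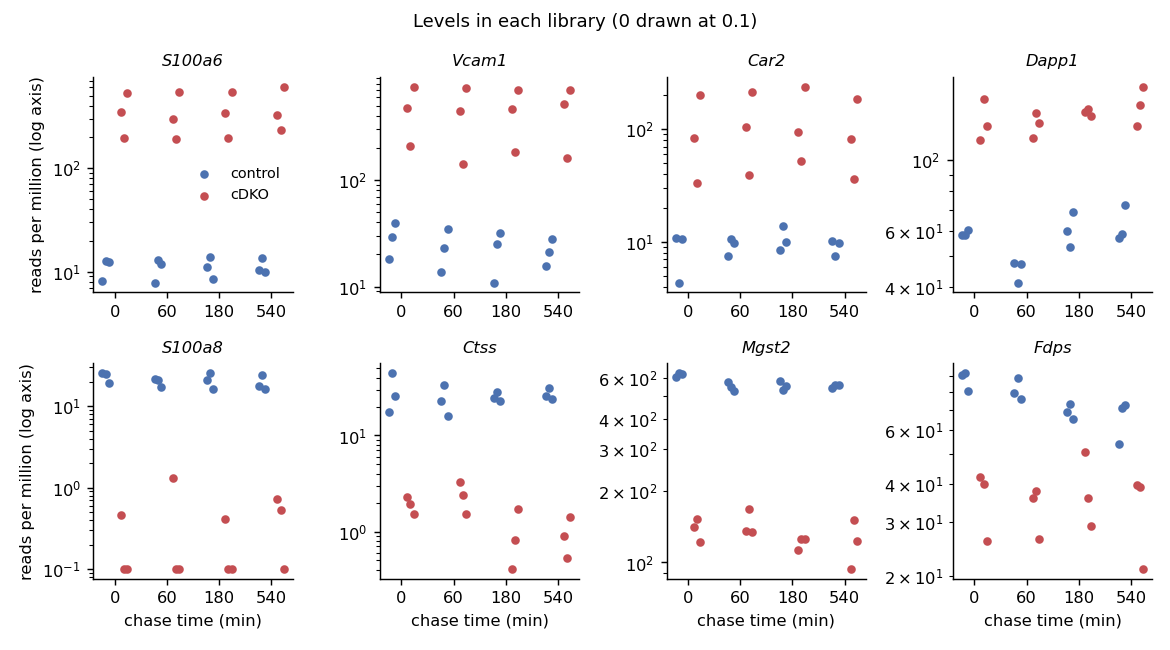
Points are CPM in each library (log axis, 0 drawn at 0.1) of 8 chromosome 3 3′UTRs at 4 chase times, control in blue and cDKO in red, 3 libraries each. In the upper row every cDKO library lies above the control libraries, in the lower row below them, and among the 3 cDKO libraries of S100a6, Vcam1 and Car2 the third is highest and the second lowest at every time.

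The 32 members above 0 at all 4 times had a median of 69.1 reads, against 658 reads in the 137 members called lower and 167 in the other 293. Their median change was 1.12 at 0 min and 1.14 at 540 min. The 8 with the most reads were Rpl22l1, Vcam1, S100a6, Dapp1, S100a10, Pdlim5, Nfkb1 and Car2. Dapp1, an adaptor that binds phosphoinositides, was at 58.4, 58.4 and 60.7 CPM in control and 115, 155 and 127 CPM in cDKO at 0 min and rose by 1.18 ± 0.14 (adjusted p = 0.000922), with a narrow spread in both genotypes. Pdlim5, a scaffold with PDZ and LIM domains, was at 33.2, 35.6 and 31.3 CPM and 114, 85.9 and 213 CPM and rose by 2.05 ± 0.30 (adjusted p = 0.00285). Nfkb1, which encodes the p105 precursor of NF-κB p50, changed by 0.07, 0.33, 0.30 and 0.22 and passed the test at no time, and its change at 0 min was -0.03 without control replicate 2.

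Several of the highest belonged to genes of other tissues. The AMPA receptor subunit Gria2 had 2 intervals among the members. The one with more reads had none in control at 0 min and 62.5, 5.83 and 165 CPM in cDKO, at least 411-fold higher. It too passed the minimum through cDKO alone, and its cDKO libraries lay further apart than those of Cpa3. Ivl and Lce6a, of the cornified envelope, lie side by side next to S100a8 in the order of members. Ivl was at 2.33, 3.20 and 2.28 CPM in control and 16.2, 9.36 and 44.2 CPM in cDKO at 0 min, with a fitted difference of 3.15 ± 0.57. Its reads lay under the minimum in each control library of 0 min and above it in cDKO, so that no p-value is given. Lce6a had 1, 0 and 3 reads in control and 50, 61 and 78 in cDKO at 0 min.

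Within the cDKO group, these members shared an order of libraries. At 0 min 23 of the 32 (71.9%) had their highest cDKO level in replicate 3 and their lowest in replicate 2, against 32.1% of all members and 34.2% of the intervals of other autosomes that were above 0 at all times. At 60, 180 and 540 min the same order was seen in 21, 18 and 19 of the 32, against 24.5%, 25.2% and 29.9% of all members. Among the intervals of other autosomes above 0 at all times it was 27.9%, 26.3% and 28.2%. The same cDKO replicate number deviated together across chase times, so that the times are not independent. Replicate 3 also had the lowest conversion rate of the cDKO libraries at each time, and whether its difference in labelling has a part in these levels was not tested.

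Besides S100a8, Ctss, Il6ra and Psrc1, the largest falls among members called lower at all times were in Tifa, Mgst2, Gstm1 and Gstm5. Mgst2, a microsomal glutathione transferase, was at 605, 626 and 622 CPM in control and 141, 152 and 122 CPM in cDKO at 0 min and fell by 2.14 ± 0.11 (adjusted p = 2.72e-05). Gstm1, of the mu class, was at 1134, 1281 and 1267 CPM and 299, 311 and 385 CPM and fell by 1.88 ± 0.11 (adjusted p = 4.96e-05). Gstm5 fell by 1.60 ± 0.24 at lower levels, from 15.5, 17.3 and 16.4 to 6.18, 5.48 and 4.40 CPM. Tifa, an adaptor of TRAF signalling, was at 48.1, 54.7 and 40.6 CPM and 11.9, 10.4 and 9.45 CPM and fell by 2.16 ± 0.19. In these 4 genes the groups did not overlap, and the spread among the cDKO libraries was small beside the difference.

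Labelling was measured by conversions, which did not enter the choice of members. At 0 min the members as a sum had conversion rates of 1.71% to 1.75% in control and 0.573% to 0.905% in cDKO libraries, and the other autosomes 1.62% to 1.67% and 0.542% to 0.843%. The ratio of cDKO to control was 0.452 for the members and 0.449 for the other autosomes. The lower rate in cDKO was thus seen on and off the chromosome alike, and the median member rate divided by that of other autosomes lay between 0.982 and 1.05 in control and between 0.949 and 1.08 in cDKO libraries over all times.

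Relative to the rate of its whole library, a member's labelling could be tested for 422 members. The median log2 difference, cDKO over control, was -0.00 for the members and 0.01 for the other autosomes. Called were 2 members, both higher, and none lower, against 0.312% of all intervals (28 of 8985, edgeR). At an unadjusted p under 0.05 there were 36 members (8.53%), against 7.78% of all intervals. The 2 were S100a11 and Dpm3, the latter a subunit of dolichol-phosphate mannose synthase. S100a11 had rates of 1.66%, 1.69% and 1.70% in control and 1.12%, 1.07% and 0.907% in cDKO, a relative difference of 0.47 (adjusted p = 0.000109). Dpm3 had 1.87%, 2.06% and 1.85% and 1.24%, 1.28% and 0.982%, a relative difference of 0.45 (adjusted p = 0.00602). In both, the rate in cDKO was lower than in control, but by less than in the library as a whole. Over the alternatives without 1 library the difference of S100a11 ranged from 0.36 to 0.55 and that of Dpm3 from 0.37 to 0.49, with the call of Dpm3 lost without control replicate 1 or 3 (adjusted p of 0.111 and 0.15).

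The sets that differed in abundance differed little in labelling. The median relative difference was 0.01 in the 19 tested members above 0 at all 4 times, -0.01 in 135 called lower and 0.01 in 268 others. S100a6, with rates of 2.20%, 0.958% and 1.29% in control at few reads and 0.668%, 0.632% and 0.560% in cDKO, had a relative difference of 0.03 (adjusted p = 0.991). For Vcam1 it was 0.15 and for Dapp1 -0.01. Of the first set, 13 of the 32 lacked the coverage for a test.

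Label was then lost in the chase. The members' summed rate in control fell from 1.73% ± 0.022 (SD, n = 3) at 0 min to 1.54% ± 0.036, 1.09% ± 0.031 and 0.273% ± 0.013, and in cDKO from 0.780% ± 0.18 to 0.722% ± 0.16, 0.515% ± 0.11 and 0.172% ± 0.018. The slope of the log2 rate per hour differed between genotypes by a median of 0.07 over 429 members tested and 0.07 over the other autosomes, in the direction of slower loss in cDKO. It was above 0 in 346 of the 429. No background was subtracted from the rates in this test, and cDKO began the chase at a lower rate. The part of a background in this difference was not tested. The lower quartile was 0.014 in the members and 0.015 on the other autosomes, so that most intervals of both were above 0. Called was 1 member, against 0.127% of all intervals (12 of 9444, edgeR), and 76 (17.7%) were at an unadjusted p under 0.05, against 16.9% of all intervals.

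A half-life could be fitted for 175 members, after a filter on the spread at 0 min. The median half-life of control cells was 209.9 min and that of cDKO cells 239 min, with a median log2 ratio of 0.19, and 124 of the 175 were longer in cDKO. For 3445 intervals of other autosomes the medians were 224 and 250.2 min and the ratio 0.18. Of these 2343 (68.0%) were longer in cDKO, against 70.9% of the members. Fitted per replicate number, the members' median ratio was 0.25, 0.18 and 0.17. With a background of 0.1% subtracted from every rate it was 0.01, against 0.02 for the other autosomes. This background is assumed and not measured, it left 134 members, and it lies above the median member rate of the cDKO libraries at 540 min (0.0919% to 0.0995%). A log-linear fit gave 0.35, against 0.33 for the other autosomes.

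Among named members the shortest half-life was that of Mcl1, at 84.5 ± 2.1 min (SD over 3 replicate fits) in control and 97.3 ± 8.0 min in cDKO. Dapp1 was at 132 ± 38 and 144 ± 69 min, Mbnl1 at 205 ± 2.4 and 218 ± 20 min, and Nfkb1 at 242 ± 47 and 280.3 ± 74 min. Long half-lives, past the 540 min of the chase, were poorly set, as in Dpm3 at 1009 ± 180 and 1734 ± 5141 min. In the 74 members called lower at all times with a half-life the medians of the genotypes were 239 and 297 min, and in the 94 others 189 and 213 min. Only 7 of the 32 members above 0 had one, with a median log2 ratio of 0.84 and replicate medians of 0.51 to 1.29. Without the filter on the spread it was 0.20 over 22 of them, close to the 0.17 of all 432 members.

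**Figure D5:**
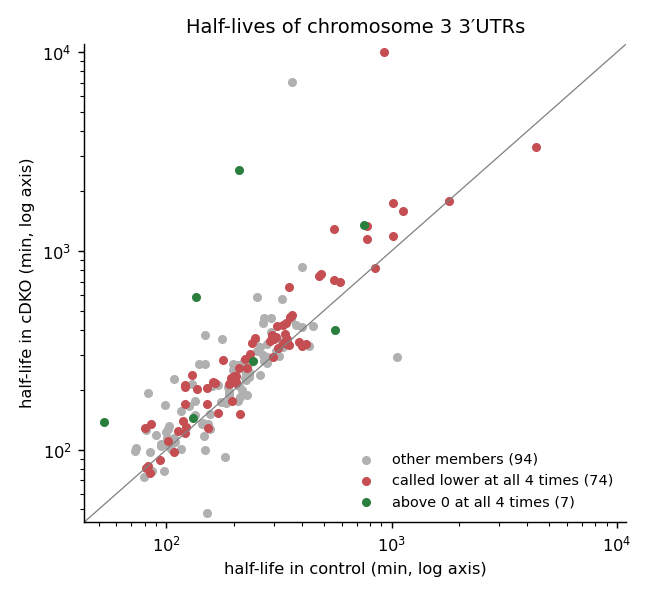
Each point is 1 of 175 chromosome 3 3′UTRs with its half-life in control (x axis) and cDKO (y axis), in min on log axes, and the line marks equal values. Most points lie near or above the line (124 of 175 above, 70.9%, against 68.0% on other autosomes), and the 7 members above 0 at all 4 times (green) are spread widely.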

How the data were processed

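Total RNA for 24 libraries was alkylated and sequenced as QuantSeq 3′ libraries. Per the file headers, the deposited tables were made by the authors with SlamDunk 0.4.3 on mm10 3′UTR intervals, and hold the count of reads per interval (not normalised), counts of covered and converted T positions, the conversion rate as a fraction, and a CPM value. The counts were used here, conversion rates and CPM were recomputed from them, and the deposited CPM served only to obtain the total of filtered reads (9552906 to 13882269 per library). The build in the submitters' processing notes is GRCm38. Of 39419 lines per table, 99.2% were named through RefSeq accessions, the longest of overlapping intervals of a gene on a strand was kept, and 92 intervals listed under 2 symbols were counted once, which left 28930.

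The members and the gene lists were chosen with earlier results of these data known. Abundance was tested at each chase time, which the labels call the batch, with edgeR 4.0.16 (R 4.3.3; quasi-likelihood, TMM) over 9945 intervals, 3 against 3 libraries, with Benjamini-Hochberg adjustment and a threshold of 0.05. Relative labelling was tested on conversions with coverage times the library-wide rate as offset, and decay as the genotype by hour interaction over 24 libraries, both where every library covered 100 or more T positions and 50 or more were converted over all. Half-lives came from a least-squares single exponential on rates divided by the 0 min mean, bounded to 1 and 10000 min, with an SD at 0 min under 0.3. Intervals on ratios and floors (3 reads) cover counting error only, since PCR copies cannot be told from molecules. Of the members 4 overlap another gene's interval on the same strand. The procedures were tested on simulated data. Named genes were the 8 highest and 8 lowest at 0 min among members called at all 4 times, the 8 with the most reads of those above 0 at all times, members called in labelling or decay, the 4 with the most reads of each list, Fdps and Tent5c. Some results under this rule are not reported here. Alternatives were DESeq2 1.42.0, other normalisations, filters, features, a replicate block and each replicate left out. Replicate numbers did not pair the genotypes (correlations of deviations -0.056 to 0.0903).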

Additional observations from a re-analysis of the deposited data

Results flagged for a closer look

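Mrps28, a protein of the mitochondrial ribosome, was at 20.9, 28.1 and 22.8 CPM in control and 29.1, 33.0 and 36.9 CPM in cDKO at 60 min, so that every cDKO library was above every control library (log2 change 0.44, adjusted p = 0.103, edgeR). At 180 min it was at 28.1 to 40.2 CPM in control and at 16.3 to 26.5 CPM in cDKO, so that every cDKO library was below every control library (log2 change -0.74, adjusted p = 0.0326, edgeR). The difference between these times was not tested.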

How the results depend on the processing

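Every alternative kept the median change of the members below 0 at each time. At 540 min it was -0.53 with TMM factors computed without chromosome 3 and -0.49 without a filter on low counts. With 1 library left out it was -0.56 to -0.47, -0.49 to -0.47, -0.57 to -0.52 and -0.54 to -0.50 at 0, 60, 180 and 540 min. Members called lower then numbered 84 to 221, 194 to 250, 169 to 243 and 170 to 232, and higher 11 to 22, 15 to 24, 12 to 23 and 9 to 20. Without control replicate 1 there were 170 lower at 540 min and 12 higher at 180 min, and without control replicate 3 there were 9 higher at 540 min. Members apart from the shared change numbered 24 to 93, 58 to 102, 50 to 102 and 39 to 83, of which above it 14 to 53, 31 to 52, 25 to 62 and 15 to 41. The extremes at 0 min were without control replicate 2 (24) and cDKO replicate 2 (93). At 180 min 30 were above it with the mean as centre in place of the median. Counts summed over the chase times gave 335 members lower, against 16.4% of all intervals. Members above 0 at all times were 25 to 36 without 1 replicate number, and 22 of the 25 without replicate 3 were in the set of 32. Labelling gave 1 to 4 calls and decay 0 to 2, and decay gave 0 without the 540 min libraries. The half-life ratio was 0.12 to 0.28 without 1 replicate number, 0.0119 with background subtracted and 0.35 with a log-linear fit, and 93.8% to 100% of windows were below 0. On the other autosomes the half-life ratio was 0.0242 with background subtracted and 0.33 with a log-linear fit.

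Changes at 0 min that turned direction were Nfkb1 (-0.03 without control replicate 2 and -0.10 without cDKO replicate 3), H2az1 (-0.13 without cDKO replicate 2) and S100a10 (-0.10 without cDKO replicate 3), and the cause was not tested. Their ranges were -0.10 to 0.25, -0.13 to 0.13 and -0.10 to 1.15. With 1 library left out, 43 results of named genes lost their call, among them those of Atp5pb, Ccna2, Mrps21, Ndufb5, Psmb4, Rbm8a, Rpl34, Rps3a1 and Sf3b4, and 9 gained one. With the replicate number as a replicate block the members called lower were 152, 229, 225 and 215, and of the named genes Ccna2, Rpl34 and Sf3b4 lost their call at 0 min (adjusted p = 0.0515, 0.0535 and 0.0562, edgeR). Same-numbered libraries of the 2 genotypes did not deviate together (correlations -0.056 to 0.0903). Members with few reads lacked coverage for the labelling test.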
